A study of Mus musculus with 6 samples.

Results

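Goblet cells of the mouse small intestine were described in 6 single-cell RNA-seq libraries of small intestinal mucosa, 1 library per animal, 3 from each genotype. A barcode was counted as a goblet barcode when it held at least 1000 UMIs (unique molecular identifiers, the counted RNA molecules), at most 30% of them from the mitochondrial genome, no UMI of the leukocyte gene Ptprc (CD45), and at least 1% of its UMIs from Muc2, Fcgbp, Clca1, Zg16 and Tff3. This rule found 1845 of the 60706 barcodes, which is 3.04% of all barcodes and 6.75% of the 27339 barcodes that passed the same filters on depth, mitochondrial UMIs and Ptprc. The members were 317, 633 and 235 in the control libraries and 272, 180 and 208 in the libraries labelled IE-HuR-/-. The IE-HuR-/- mice carried floxed HuR alleles deleted by Cre under the villin promoter, which is active in intestinal epithelial cells, and the controls were HuR fl/fl-Cre- littermates, so both genotypes carried the floxed alleles and the deletion was limited to villin-expressing epithelium. The mice were C57BL/6 young adults matched for age and gender. The labels state normal feeding and drinking, whereas the study's methods state that food was withheld for a day beforehand with free access to water. Villus-rich and crypt-rich epithelial fractions, released with EDTA and TrypLE, were combined before the cells were loaded. The deposited libraries held 79794848, 91818560 and 66396951 UMIs in the control mice and 59518012, 65526044 and 65925616 UMIs in the IE-HuR-/- mice, and the goblet barcodes held between 3473721 and 6582381 of them per library. No goblet barcode sequence was shared between any of the 15 pairs of libraries, although 22 to 44 barcodes of all kinds were shared per pair.

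Goblet cells are secretory cells of the intestinal epithelium that build the mucus gel. They fold and heavily glycosylate the gel-forming mucin MUC2, pack it into granules with partner proteins such as FCGBP, CLCA1, ZG16 and TFF3, and release it at the luminal surface, where it keeps bacteria away from the epithelium. They descend from crypt progenitors that express the transcription factor Atoh1, and SPDEF drives their terminal maturation. HuR, encoded by Elavl1, is an RNA-binding protein that binds AU-rich and U-rich elements of many messenger RNAs and changes their stability and translation. In the GRCm38.p6 assembly (mm10), RefSeq places Muc2 at chr7:141690340-141754691, Fcgbp at chr7:28071236-28120864, Zg16 at chr7:127050156-127052675, Clca1 at chr3:145004537-145032776 and Tff3 at chr17:31125306-31129611.

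The label was checked against goblet genes that the rule did not use, and it held for the barcodes rich in mucus transcripts. Those just past the minimum were shallower and held these genes less often. Among the 507 members with at least 20% of their UMIs from the 5 genes (median depth 20294 UMIs), 98.4% held a UMI of Agr2, the disulfide isomerase needed for MUC2 folding. 97.8% of the same barcodes held Spink4, 92.3% held the secreted kallikrein Klk1, 90.1% held Atoh1 and 75.1% held Spdef. Among the 549 members with 1 to 2% (median depth 1188 UMIs), the shares were 21.3% for Agr2, 26.05% for Spink4, 4.37% for Klk1, 8.93% for Atoh1 and 3.83% for Spdef. The Ptprc-free barcodes with under 0.2% from the 5 genes, at a median of 8582 UMIs, held Agr2 in 7.09%, Atoh1 in 1.24% and Spdef in 0.426% of cases. Among members depth rose with the share of mucus transcripts, so the shares of the shallow and the deep members are not comparable by themselves, whereas the barcodes under 0.2% were deeper than the members with 1 to 2%. The 549 members with 1 to 2% held a median of 3.47% of UMIs from 7 enterocyte genes. This was near the 3.34% of barcodes with 0.5 to 1% from the rule genes, outside the rule. Members with at least 20% held 0.358%. Of the 1845 members, 983 held at least 2% from these 7 genes, the minimum used below for enterocyte barcodes.

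**Figure D1:**
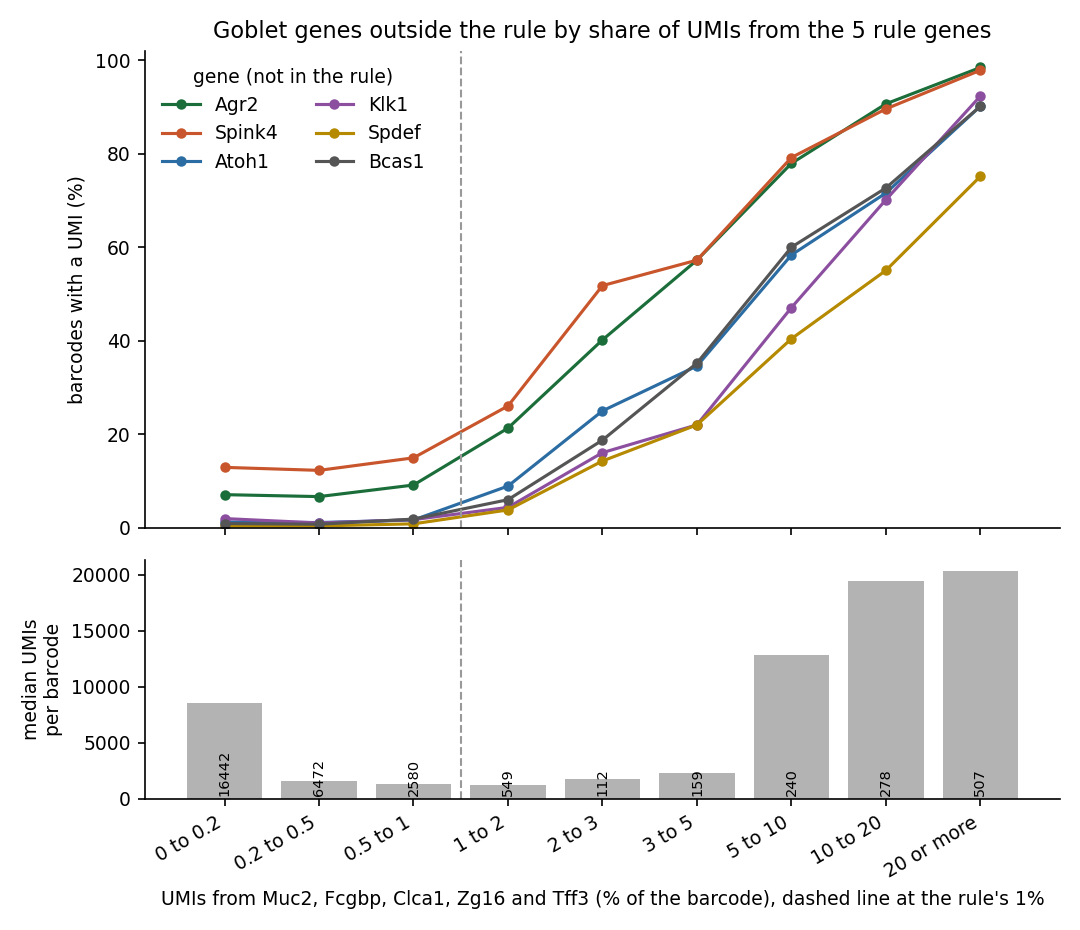
The upper panel plots the share of barcodes (%) with at least 1 UMI of 6 goblet genes that the rule did not use against the percent of a barcode's UMIs from the 5 rule genes, and the lower panel plots the median UMIs per barcode, with the number of barcodes written in each bar; the dashed line is at 1%. The 549 barcodes just past the minimum sit near the bottom of both panels, and the 507 barcodes with at least 20% sit at the top of the upper one.

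The shallow end was unevenly spread over the libraries. Control 2 gave 290 of the 549 members with 1 to 2%, which was 45.8% of its own members, against 13.9 to 28.3% in the other libraries. Its median goblet barcode held 1759 UMIs, against 8363 to 14314 elsewhere. The 1025 members with at least 5% from the rule genes, 207, 267 and 134 in control and 155, 128 and 134 in IE-HuR-/- libraries, held 73.3 to 85.8% of the members' UMIs per library, so sums over the members were made mostly of these. All 5 rule genes were seen together in 1415 members (76.7%), whose median depth was 14669 UMIs, and the members with 2 to 4 of the genes had medians of 1144 to 1181 UMIs. The 10 barcodes just inside the minimum held 1.00 to 1.01% and the 10 just outside it 0.997 to 0.999%. Barcodes of T cells, which do not make mucus proteins, held 0.179998 to 0.621% of their UMIs from the 5 genes per library, and the part of free RNA in the members closest to 1% was not tested.

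Markers of other cell types were summed over the members in each library. Enterocyte RNA was the largest other component. The 22 genes of the enterocyte list made up 5.72 ± 0.147% of the UMIs in control and 4.41 ± 0.542% in IE-HuR-/- goblet barcodes (mean ± SD, n = 3 libraries each), with 5.76, 5.84 and 5.56% and 4.23, 5.02 and 3.99% in the single libraries, so every control library was above every IE-HuR-/- library. All 22 had a UMI in the members, led by the apolipoprotein gene Apoa1. The same list reached 10.02% in enterocyte barcodes and 2.38% in T cell barcodes. The 20 goblet markers outside the rule, led by Spink4, made up 0.562 ± 0.0902% in control and 1.14 ± 0.182% in IE-HuR-/- members, of which the 19 genes other than Spink4 held 0.378 ± 0.0359% and 0.479 ± 0.0525%, and 20 of 20 were higher in goblet than in other barcodes.

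The remaining lists were small. Paneth cell genes, led by the defensin Defa24, held 0.0551 ± 0.0203% and 0.107 ± 0.0384%, and enteroendocrine genes, led by secretin (Sct), held 0.167 ± 0.0879% and 0.2898 ± 0.0953%. Single barcodes carried much of the latter. A single barcode of IE-HuR-/- 2 gave 0.3396 of the 0.373% in that library. With at least 5% from the rule genes the enteroendocrine list held 0.0353, 0.0255 and 0.0251% in control and 0.16, 0.444 and 0.192% in IE-HuR-/- libraries, without overlap, and without the 4 barcodes that had at least 1% of their UMIs from the list it held 0.0237, 0.0255 and 0.0251% and 0.0379, 0.0382 and 0.0405%. Stem and progenitor genes, led by Hmgb2, held 0.01396 ± 0.00959% and 0.00801 ± 0.00206%, and the control mean was 0.00842% without control 3, which alone held 0.02502%. T and NK cell genes, led by Gzma, held 0.00708 ± 0.00332% and 0.00951 ± 0.00359%, and tuft cell genes, led by Ltc4s and with Gnat3 at 0, held 0.00218 ± 0.000491% and 0.00264 ± 0.000134%. B and plasma cell genes, led by Igkc and all with a UMI, held 0.000458 ± 0.000414% and 0.00163 ± 0.000302%, with every IE-HuR-/- library above every control library. Myeloid genes, led by Fcer1g, held 0.000478 ± 0.000128% and 0.000632 ± 0.000126%, with 9 of 10 seen and the macrophage gene Adgre1 at 0. Fibroblast genes, led by Dcn, had 53 UMIs in all and Lum at 0, and endothelial genes, led by Pecam1, had 37 UMIs in all and Cdh5, Kdr and Plvap at 0. The 5 erythroid genes, led by the beta-globin Hbb-bs, made up 0.103 ± 0.0344% in control and 0.00412 ± 0.00207% in IE-HuR-/- members.

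Goblet barcodes were set against the 34764 other barcodes that passed the same filters on depth and mitochondrial UMIs, as CPM (a gene's UMIs scaled to a common library total) averaged over the 6 libraries, with 20 CPM added to both sides before the log2 ratio. UMIs tag one end of a transcript, so CPM counts molecules and is not divided by gene length. These ratios describe barcodes chosen on some of the same genes and carry no test. The rule genes led, with log2 ratios of Zg16 6.82, Fcgbp 6.43, Tff3 6.41, Muc2 6.29 and Clca1 6.27. Behind them came secreted and folding partners. Spink4, a Kazal-type protease inhibitor of goblet granules, stood at 4243 CPM in goblet and 56.8 CPM in other barcodes, a log2 ratio of 5.80. Agr2 stood at 1645 and 35.8 CPM, a log2 ratio of 4.90. Txndc5 (3.00) and Qsox1 (2.80), further enzymes of disulfide bond formation, were in the same tier. Gcnt3 (2.80), which branches mucin O-glycans, was also among the leading 25, as was the membrane mucin Muc3a (3.00).

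Several leading genes belong to defence or to granule release. Ido1, which degrades tryptophan, had 779.8 CPM in goblet and 9.73 CPM in other barcodes, a log2 ratio of 4.75. The chemokine Ccl6 reached a ratio of 4.31 and Lypd8, a GPI-anchored protein that binds flagellated bacteria, a ratio of 3.20. Sytl2 (3.13) encodes a RAB27 effector that docks secretory granules. Klk1 (3.64), the calcium-binding S100a6 (3.97), the galectin Lgals2 (3.31), the serine protease Tpsg1 (2.95) and colipase, Clps (3.21), were of the same order, and Atoh1 (2.97) was the only transcription factor among the 25. Fer1l6 (3.91), Bcas1 (2.85), Ano7 (2.85) and Gm1123 (2.77) completed the list. Zg16 was the most abundant rule gene in 1315 members, Fcgbp in 347, Tff3 in 124, Muc2 in 58 and Clca1 in 1.

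The rule genes themselves, whose levels chose the members and are therefore only described, made up 17.7 ± 0.442% of the UMIs in control and 19.2 ± 1.36% in IE-HuR-/- goblet barcodes. Zg16, a lectin-like protein that binds Gram-positive bacteria, was at 97770.5, 96421 and 96460 CPM in control and 105435, 89962 and 104129 CPM in IE-HuR-/- libraries, and the genotypes overlapped. Tff3, a trefoil peptide, was at 32851, 29829.8 and 32517 CPM and 39714, 31099.8 and 39527 CPM, again with overlap. Muc2 was at 18810.5, 17070.1 and 16248 CPM and 19342, 20015 and 21049 CPM, and Fcgbp, which is bound to the MUC2 network, at 25233, 23497 and 23901 CPM and 26078, 26708 and 26583 CPM. Clca1, a metalloprotease that processes MUC2, was at 6951, 6159 and 6535 CPM and 8875, 8923 and 9572 CPM. For Muc2, Fcgbp and Clca1 the 3 IE-HuR-/- libraries lay above the 3 control libraries in these values. Such separation was common among the 9596 genes tested. After TMM scaling all IE-HuR-/- libraries lay above all control libraries in 18% of them and below in 19.3%.

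Elavl1, the deleted gene, did not separate the genotypes. It was at 27.8, 25.98 and 31.2 CPM in control and 24.8, 27.3 and 27.5 CPM in IE-HuR-/- goblet barcodes (log2 fold change after TMM scaling 0.084, standard error 0.129, edgeR adjusted p = 0.709), and the plain CPM had the opposite order of means, 28.3 in control and 26.5 in IE-HuR-/- libraries. Reads from the part of the transcript outside the deletion would still be counted, and where the counted reads lie in the gene is not known from the count tables. The genotypes therefore rest on the labels, and each direction given here is that of the libraries labelled IE-HuR-/-.

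The first comparison between the genotypes was of the share of goblet barcodes among Ptprc-free barcodes, and it did not differ beyond the spread between animals. The share was 5.899% (5.2998 to 6.56), 8.93% (8.28 to 9.61) and 6.99% (6.18 to 7.904) in the control libraries, with Wilson 95% intervals that cover counting error only. It was 7.39% (6.59 to 8.28), 4.49% (3.89 to 5.17) and 5.45% (4.77 to 6.21) in the IE-HuR-/- libraries. Control 2 was the highest and IE-HuR-/- 2 the lowest, and the genotypes overlapped. The means were 7.27 ± 1.53% and 5.77 ± 1.48% (SD, n = 3 each), with a log2 ratio of -0.33 and p = 0.3 in a two-sided exact permutation test. With 3 libraries against 3 the smallest p such a test can give is 0.1. With at least 5% from the rule genes the shares narrowed to 3.85, 3.76 and 3.99% and 4.21, 3.19 and 3.51% (exact permutation p = 0.5). Among barcodes with at least 3000 UMIs the means were 7.22 ± 0.287% and 7.002 ± 2.34% (exact permutation p = 1). With a minimum of 500 UMIs the log2 ratio was -0.86 (exact permutation p = 0.3), since control 3 then reached 32.1%.

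**Figure D2:**
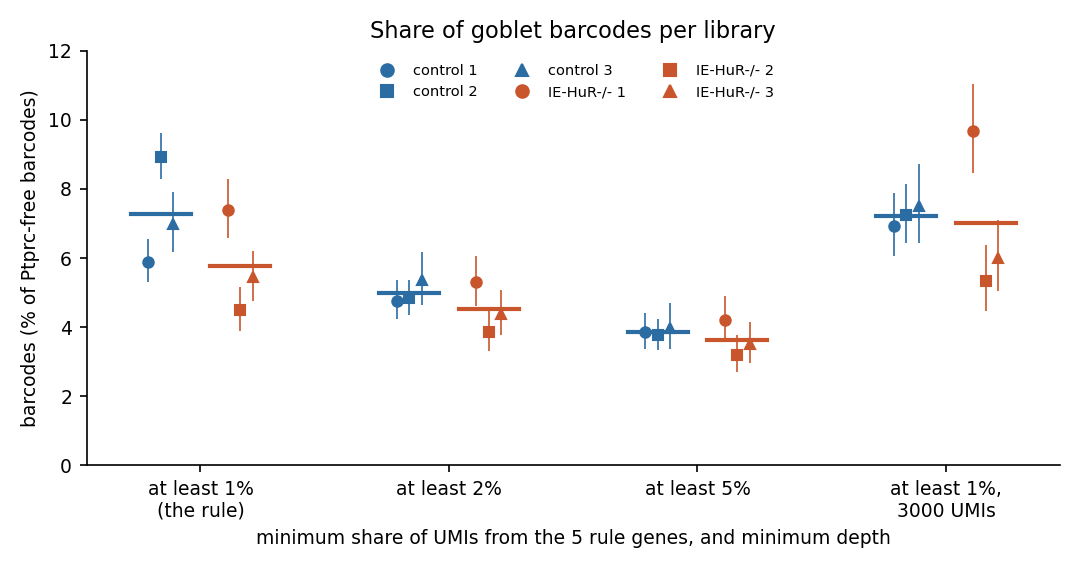
Goblet barcodes as a percent of Ptprc-free barcodes in each of the 6 libraries, for 3 minimum shares of UMIs from the rule genes and for a depth of at least 3000 UMIs; symbols are libraries, error bars are Wilson 95% intervals and horizontal lines are means of 3 libraries. Control 2 stands at 8.93% under the rule and at 3.76% with at least 5%, where the 6 libraries lie between 3.19 and 4.21%.

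Cell measures were compared in the same way. The median depth of a goblet barcode was 13156, 1759 and 14314 UMIs in control and 9696, 8363 and 10328 UMIs in IE-HuR-/- libraries (exact permutation p = 1). When the 1065 members with at least 3000 UMIs were thinned to 3000, the median number of genes per barcode was 1050, 1050 and 1091 in control and 1032, 943 and 995 in IE-HuR-/- libraries. All 3 control values were above all 3 IE-HuR-/- values, and the p of 0.1 is the smallest that the exact permutation test can give here. Without thinning the same barcodes had medians of 3774, 3233 and 3942 and 2993, 3169 and 3532 genes, where the genotypes overlapped. The separation at 3000 UMIs was also seen in 300 enterocyte barcodes per library, with medians of 1167.5, 1178 and 1169 and 1100.5, 1110 and 1124 genes. In 300 T cell barcodes per library the genotypes overlapped. Ribosomal protein transcripts made up a median of 0.872 ± 0.0334% and 0.939 ± 0.0647% of a goblet barcode's UMIs (exact permutation p = 0.3), and the enterocyte list a median of 4.08 ± 0.956% and 2.49 ± 0.864% (exact permutation p = 0.2).

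Gene levels were then compared between the genotypes on sums of UMIs over the goblet barcodes of each library. Of 9596 genes tested, 1801 passed an adjusted p of 0.05 in edgeR's quasi-likelihood test (18.8%), 983 higher (10.2%) and 818 lower (8.52%) in IE-HuR-/- goblet barcodes. The median log2 fold change over all genes tested was -0.031. After TMM scaling the IE-HuR-/- libraries all lay above the control libraries in 1725 genes (18%) and all below in 1855 (19.3%). The counts of called genes depend on the scaling of the libraries. Without the TMM factors, which correct for a few genes taking a large part of a library, 540 genes were higher and 1523 lower, and the median over all genes moved to -0.21. Fold changes below are after TMM, and levels are plain CPM. Leaving out control 1, IE-HuR-/- 2 or IE-HuR-/- 3 lowered the count of called genes to 1117, 1148 and 962, and without the shallow control 2 it was 1244.

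Among genes enriched in goblet barcodes, most of those called were higher in the IE-HuR-/- libraries. Of the 912 tested genes at least 2 times as high in goblet as in enterocyte barcodes over the 6 libraries, 307 were called (33.7%), 296 higher (32.5%) and 11 lower (1.21%), with a median log2 fold change of 0.40. The enrichment used the same sums, so a gene that rose in IE-HuR-/- goblet barcodes passed it more easily, as did Saa1, which was 1.84 times as high in goblet as in enterocyte barcodes in control and 3.13 times in IE-HuR-/- libraries. With the enrichment taken from the control libraries alone, a definition added after the data were seen, 260 of 820 genes were higher and 11 lower, with a median of 0.36. Without TMM scaling 204 of the 912 were higher and 25 lower, with a median of 0.22, and in a fit limited to genes at least as high in goblet as in other barcodes 160 of 732 were higher and 32 lower, with a median of 0.16. Without control 2, 223 were higher and 12 lower, and without IE-HuR-/- 3, 192 were higher and 6 lower. The enterocyte list took a smaller part of the IE-HuR-/- sums, as given above, and the comparison was therefore repeated on the 862 members with under 2% of their UMIs from 7 enterocyte genes (166, 196 and 105 in control and 136, 123 and 136 in IE-HuR-/- libraries). In these the enterocyte list held 1.09 ± 0.222% and 1.203 ± 0.0228% and the rule genes 32.5 ± 2.24% and 29.2 ± 1.76%. There, 285 of 7752 genes were called (3.68%), 193 higher and 92 lower, with a median standard error of 0.25 against 0.18 over all members. Among the genes enriched in goblet barcodes 58 of 759 were higher and 12 lower, with a median log2 fold change of 0.07102, and with the enrichment from the control libraries alone 49 of 686 were higher and 12 lower, with a median of 0.022. With at least 5% from the rule genes, where the enterocyte list held 5.38 ± 0.145% and 3.91 ± 0.555%, 26.6% of all tested genes were called, and of 814 enriched genes 374 were higher and 19 lower. In those members the median mitochondrial percent of UMIs was 6.66, 7.14 and 7.47% in control and 4.18, 4.86 and 4.73% in IE-HuR-/- libraries, without overlap, whereas over all members it was 5.24, 5.28 and 6.29% and 7.14, 5.08 and 5.34%, and the part of this difference in the calls was not tested. In enterocyte barcodes, where 59.3% of 12152 genes were called, 191 of 789 of the goblet-enriched genes were higher and 199 lower. The part of enterocyte RNA in the single changes was not tested. Each group below is given for all members and for the members with little enterocyte RNA. Of all genes, 10.2% were called higher and 8.52% lower over all members, and 2.49% and 1.19% in the members with little enterocyte RNA.

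Secreted and granule proteins of goblet cells were higher in IE-HuR-/- barcodes where they passed the test. Of 30 listed genes, 27 had a UMI in the members and 24 were tested, of which 14 rose and 0 fell, with a median log2 fold change of 0.68 against -0.031 over all genes and 0.40 over the goblet-enriched genes, to which 23 of the 24 belong. The share called higher was 58.3%, against 10.2% of all genes and 32.5% of the goblet-enriched ones. In the members with little enterocyte RNA 4 of 23 rose, against 2.49% of all genes, and the median was 0.22. The rises over all members numbered 12 without control 2, 9 without control 1 and 9 without TMM scaling. Ang4, Nupr1 and Itln1 of this list are also on the Paneth cell list, which held 0.0551% of the UMIs in control and 0.107% in IE-HuR-/- members and at least 1% in 8 and 18 members, and the part of Paneth cell RNA in their values was not tested. Spink4 (RefSeq position chr4:40920056-40931395) moved most among the abundant members. It was at 1594, 1446 and 2482 CPM in control and 7141, 5178 and 7619 CPM in IE-HuR-/- goblet barcodes, with every IE-HuR-/- library above every control library (log2 fold change 2.04, standard error 0.214, edgeR adjusted p = 0.000441). In members with little enterocyte RNA it was at 3117, 2988 and 5007 and 12075, 10036 and 12248 CPM (log2 fold change 1.70, edgeR adjusted p = 0.000683). After thinning to 3000 UMIs, 68.4, 68.3 and 72.4% of control and 75.3, 91.3 and 87.2% of IE-HuR-/- members held a Spink4 UMI. T cell barcodes at the same depth held it in 2.67, 4 and 5% and 5, 7.33 and 11.3%.

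Of the other granule proteins, 3 also rose in both fits. Klk1 was at 219, 208 and 234 CPM in control and 411, 319 and 482 CPM in IE-HuR-/- libraries (log2 fold change 1.06, standard error 0.142, edgeR adjusted p = 0.000268), and its log2 fold change was 0.71 in members with little enterocyte RNA. Pla2g10, a secreted phospholipase A2, was at 56.8, 54.7 and 53.6 and 111, 89.2 and 124 CPM (log2 fold change 1.15, edgeR adjusted p = 7.17e-05), and 0.74 in those members. Guca2a, which encodes guanylin, a peptide that drives chloride and water secretion, was at 509, 389 and 658 and 754, 674 and 963 CPM, and control 3 and IE-HuR-/- 2 lay close together (log2 fold change 0.81, edgeR adjusted p = 0.015). Without TMM scaling Guca2a was no longer called.

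The remaining 10 rises in this group were called over all members and not in those with little enterocyte RNA. Agr2 was at 1252, 1201 and 1643 CPM in control and 2183, 1575 and 2015 CPM in IE-HuR-/- libraries, where control 3 lay above IE-HuR-/- 2 before scaling (log2 fold change 0.68, edgeR adjusted p = 0.00439). In members with little enterocyte RNA its log2 fold change was 0.31, which did not pass (edgeR adjusted p = 0.309). Lypd8 was at 2860.1, 2853 and 3314 and 3731, 3479.6 and 4066 CPM (log2 fold change 0.50, edgeR adjusted p = 0.00729). The ion transport regulator Fxyd3 had a log2 fold change of 0.97, the stress-response gene Nupr1 1.23, Ttc39a 0.89, the glycosyltransferases Galnt12 0.68 and Gcnt3 0.40, the calpain Capn9 0.44 and Smim14 0.37. Ang4, a bactericidal ribonuclease, was low at 14.9, 17.9 and 14.99 and 48.9, 28.8 and 22.02 CPM (log2 fold change 1.24, edgeR adjusted p = 0.0159), and the call was also lost without control 1 and without control 3.

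The 10 tested members that did not pass included abundant goblet products. Ccl6 was at 676, 553 and 714 CPM in control and 643, 497 and 672 CPM in IE-HuR-/- libraries (log2 fold change 0.081, edgeR adjusted p = 0.726). The related chemokine Ccl9 (log2 fold change 0.32), Tpsg1 (0.39), Smim6 (0.33), Rep15 (0.10) and Slc12a8 (0.14) did not pass either. Itln1, the lectin intelectin, was at 57.6, 67.3 and 42.5 and 132, 76.9 and 164 CPM, with a log2 fold change of 1.32 that did not pass (edgeR adjusted p = 0.0639). The scavenger receptor protein Dmbt1 was at 10.2, 5.62 and 50.4 and 79.2, 47.5 and 59.6 CPM (log2 fold change 1.72, edgeR adjusted p = 0.273), and its level in control 3 stood apart from the other controls. The same library alone held Clca3b at 29.97 CPM, against 1.37 to 5.67 CPM in the other 5, and Clca3a1 had a log2 fold change of 0.91 without passing.

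**Figure D3:**
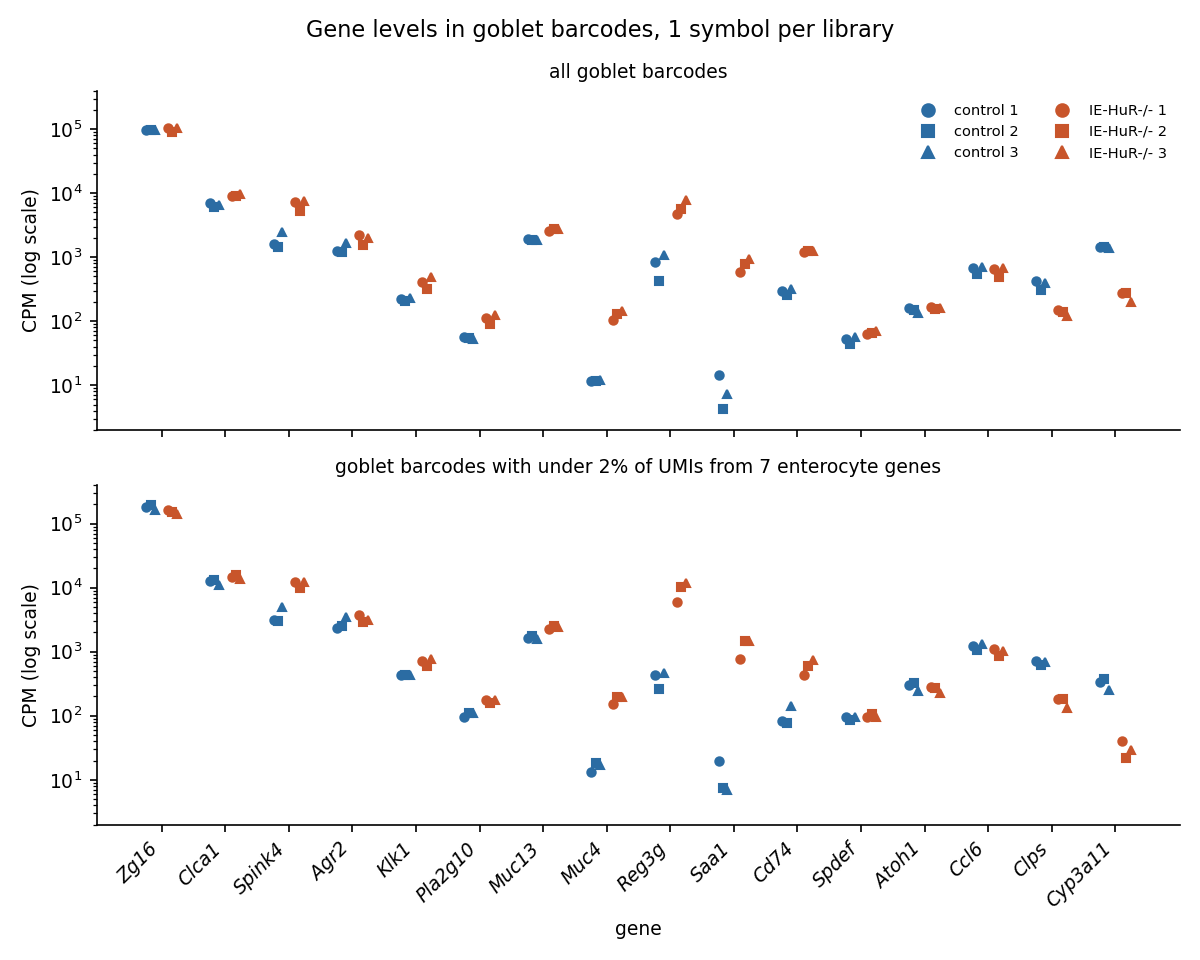
Levels of 16 genes in goblet barcodes as CPM on a log axis, 1 symbol per library, over all members (upper panel) and over the members with under 2% of UMIs from 7 enterocyte genes (lower panel). Spink4, Muc4, Reg3g, Saa1 and Cd74 are separated by genotype in both panels, Clps and Cyp3a11 lie lower in the IE-HuR-/- libraries in both, and Atoh1 and Ccl6 overlap.

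Membrane mucins are anchored in the apical surface and form the glycocalyx, in contrast to the secreted MUC2. Of 9 listed genes, 4 were tested, 3 rose (75%, against 10.2% of all genes) and 0 fell. In members with little enterocyte RNA 1 of 4 rose, against 2.49% of all genes. Muc4 (RefSeq position chr16:32735886-32782391) was at 11.7, 11.5 and 12.2 CPM in control and 103, 128 and 145 CPM in IE-HuR-/- goblet barcodes, with no overlap (log2 fold change 3.59, standard error 0.156, edgeR adjusted p = 9.38e-09). In members with little enterocyte RNA its log2 fold change was 3.54 (edgeR adjusted p = 7.18e-05). At 3000 UMIs, 2.43, 3.77 and 5.77% of control and 20.7, 33.04 and 34.4% of IE-HuR-/- goblet barcodes held a Muc4 UMI. In enterocyte barcodes the shares were 0.667, 0.667 and 0.667% and 11.3, 11 and 10%, and in T cell barcodes 0, 0.667 and 0.333% and 2.33, 1.67 and 1.33%. Muc13, the most abundant membrane mucin here, was at 1892, 1825 and 1863 and 2529, 2791 and 2705 CPM (log2 fold change 0.70, edgeR adjusted p = 0.000679), and 0.59 in members with little enterocyte RNA (edgeR adjusted p = 0.0606). Muc3a changed by 0.42 on the log2 scale (edgeR adjusted p = 0.0171), which became -0.047 in those members. Muc3 did not pass (log2 fold change 0.090).

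Transcription factors of the secretory lineage showed small differences. Of 16 listed genes 13 were tested, 4 rose (30.8%, against 10.2% of all genes) and 0 fell over all members. Among the 10 enriched in goblet barcodes 3 rose (30%), near the 32.5% of all 912 such genes. In members with little enterocyte RNA 0 of 13 rose, against 2.49% of all genes, and edgeR's unadjusted p was under 0.05 for 0. The median was 0.35 over all members and -0.044 in those with little enterocyte RNA. DESeq2 called 2 over all members, and edgeR called 1 without control 1, control 3, IE-HuR-/- 2 or IE-HuR-/- 3 and 1 without TMM scaling, while 6 were called higher without IE-HuR-/- 1 and 8 of 13 with at least 5% from the rule genes. Atoh1 was at 158, 151 and 132 CPM in control and 167, 154 and 160.1 CPM in IE-HuR-/- goblet barcodes (log2 fold change 0.30, edgeR adjusted p = 0.0946). Spdef was at 53.4, 44.5 and 57.1 and 63.6, 65.6 and 70.5 CPM (log2 fold change 0.55, edgeR adjusted p = 0.00522) and at 0.14 on the log2 scale in members with little enterocyte RNA (edgeR adjusted p = 0.665). The forkhead factors Foxa1 (0.55) and Foxa3 (0.35), and the Wnt effector Tcf7l2 (0.39), were called over all members, and each call was lost when any of several single libraries was left out. Gfi1 (0.33), Klf4 (0.39), Creb3l1 (0.29), Creb3l4 (0.45), Foxa2 (0.22), Hes6 (0.11), Cbfa2t3 (0.36) and Xbp1 (0.22), which drives the expansion of the secretory pathway, did not pass.

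Most of the mass of mucus is O-linked sugar, added in the Golgi. Of 40 tested enzymes and transporters of mucin O-glycosylation, 16 rose (40%, against 10.2% of all genes) and 5 fell, against 8.52%, over all members. Among the 14 enriched in goblet barcodes 9 rose (64.3%, against 32.5% of all 912 such genes) and 1 fell. In members with little enterocyte RNA 2 rose and 3 fell of 38, against 2.49% and 1.19% of all genes. The median log2 fold change was 0.17 there and 0.30 over all members. Without TMM scaling 7 rose and 7 fell, without control 2, 10 rose, and without control 1, IE-HuR-/- 2 or IE-HuR-/- 3, 9 rose. Fut2, the secretor fucosyltransferase, was at 0.339, 0.912 and 0.353 CPM in control and 10.3, 7.197 and 11.9 CPM in IE-HuR-/- goblet barcodes (edgeR adjusted p = 2.01e-05), with the control values resting on a few UMIs per library. In enterocyte barcodes Fut2 was at 0.634 ± 0.195 and 5.45 ± 0.518 CPM. Gcnt1, a core 2 branching enzyme, was at 2.71, 1.52 and 4.23 and 18.1, 17.8 and 27.5 CPM (log2 fold change 3.10, edgeR adjusted p = 6.16e-05), and Fut2 and Gcnt1 were the rises that also passed in members with little enterocyte RNA. Fut4, which makes the Lewis X fucose link, fell from 35.6, 29.2 and 31.6 to 16.4, 16.98 and 12.7 CPM (log2 fold change -0.89, edgeR adjusted p = 0.00146), and -1.21 in those members. St3gal4 was the most abundant member and did not pass (log2 fold change -0.013). B3gnt7 had a log2 fold change of 0.75 and B3galt5 of 1.01, while Galnt11, at 7.62, 6.99 and 11.3 and 4.83, 3.17 and 4.66 CPM, had -0.83, a call lost on leaving out any 1 of the 6 libraries.

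The folding machinery of the endoplasmic reticulum, which handles the mucins' many disulfide bonds, was higher in part. Of 39 tested genes 16 rose (41.0%, against 10.2% of all genes) and 0 fell, with a median log2 fold change of 0.25. Among the 8 enriched in goblet barcodes 4 rose (50%, against 32.5% of all 912 such genes). In members with little enterocyte RNA 2 of 38 rose, against 2.49% of all genes, although the median there was 0.31. In the same fit 12 had an unadjusted p under 0.05 in edgeR. Without control 2, 8 rose and 1 fell, 8 rose without IE-HuR-/- 3, and without TMM scaling 5 rose and the median was 0.076. Dnajc10, a disulfide reductase that assists degradation of misfolded proteins, was at 40.2, 40.3 and 38.8 CPM in control and 61.8, 55.8 and 73.6 CPM in IE-HuR-/- libraries (log2 fold change 0.86, edgeR adjusted p = 0.000545), and 0.70 in those members. Pdia5 (1.14), Creld2 (0.72) and Manf (0.67), both of the latter secreted factors induced by ER stress, rose over all members. The Pdia5 call was lost without control 1, control 2 or IE-HuR-/- 1, and the Creld2 call without control 1 or IE-HuR-/- 3. Of 49 tested genes of the translocon, ER exit and Golgi transport, 11 rose (22.4%, against 10.2% of all genes) and 2 fell, against 8.52%. Among the 6 enriched in goblet barcodes 5 rose (83.3%, against 32.5% of all 912 such genes). In members with little enterocyte RNA 0 of 49 were called, against 3.68% of all genes, and 7 had an unadjusted p under 0.05 in edgeR. The median log2 fold change was 0.16 over all members and 0.11 in those with little enterocyte RNA. Without TMM scaling the balance turned to 2 higher and 5 lower, with a median of -0.016. The rises numbered 6 without control 1, 5 without control 2, 5 without IE-HuR-/- 1 and 4 without IE-HuR-/- 3, and DESeq2 called 5 higher. The translocon and signal peptidase genes Sec11c (0.84), Ssr4 (0.75), Sec61g (0.63), Ssr2 (0.62) and Spcs3 (0.55) showed the largest log2 fold changes of this group.

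Granule exocytosis genes were tested next. Of 24 tested, 8 rose (33.3%, against 10.2% of all genes) and 0 fell, with a median log2 fold change of 0.28. In members with little enterocyte RNA 1 of 23 rose, against 2.49% of all genes, and the median there was 0.15. Without IE-HuR-/- 3 the rises numbered 5, and without TMM scaling 5 were higher and 1 lower, while without control 2, 1 gene was lower. All 8 rises were among the 15 members at least 2 times as high in goblet as in enterocyte barcodes (53.3%, against 32.5% of all 912 such genes). The gene called in members with little enterocyte RNA was Sytl1, a RAB27 effector, at 18.8, 15.95 and 15.9 CPM in control and 34.03, 26.2 and 33.4 CPM in IE-HuR-/- libraries (log2 fold change 1.07, edgeR adjusted p = 0.000401). Rab27a, the small GTPase that carries granules to the membrane, was at 91.5, 74.1 and 74.9 and 112, 128 and 133 CPM (log2 fold change 0.81, edgeR adjusted p = 0.000802), and had 0.41 in those members (edgeR adjusted p = 0.304). The calcium sensor Syt7 (0.76), Bcas1 (0.67) and Chrm3 (0.95), the muscarinic receptor through which acetylcholine triggers mucus release, were called over all members only. Vamp8, the most abundant member and the SNARE protein of mucin granules, did not pass (log2 fold change 0.23).

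**Figure D4:**
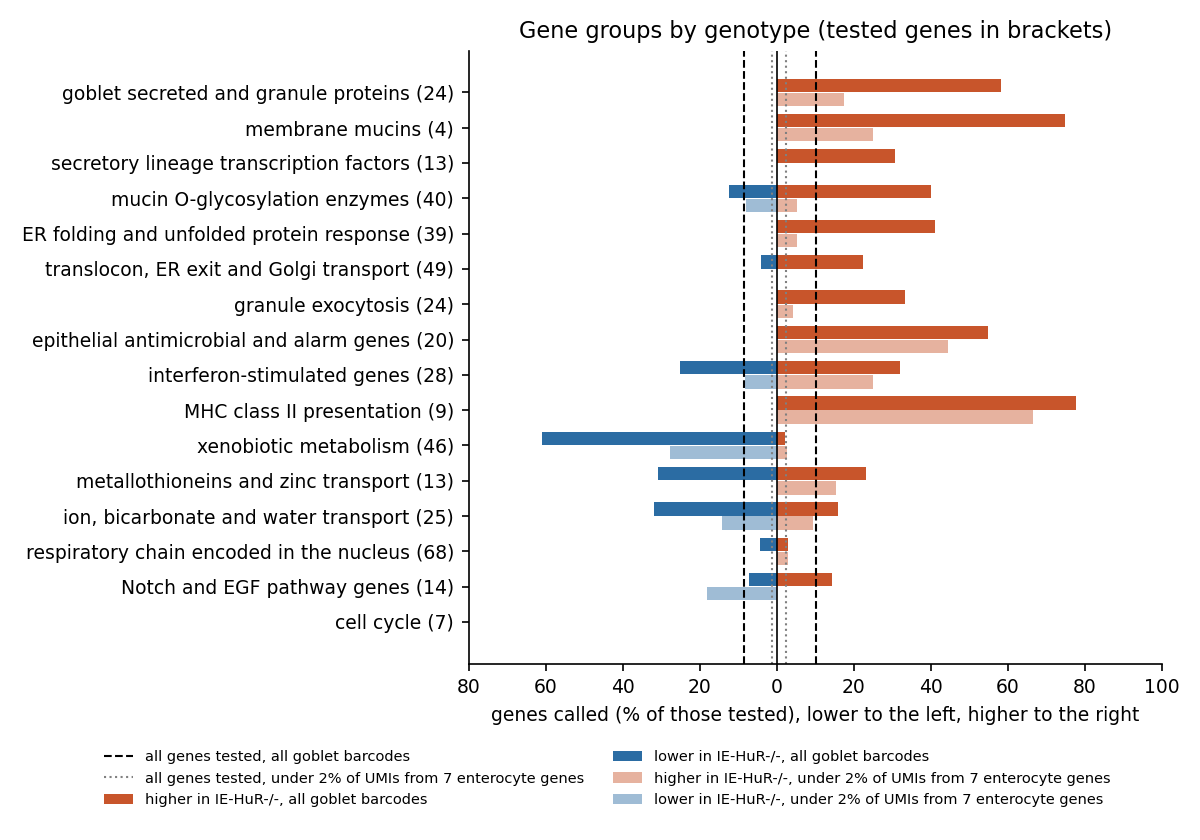
Percent of tested genes in each of 16 gene groups called higher (to the right) or lower (to the left) in IE-HuR-/- goblet barcodes, over all members (full colour) and over members with little enterocyte RNA (pale); dashed lines mark the percent of all tested genes called in each direction over all members, 10.2% higher and 8.52% lower. The bars for antimicrobial and MHC class II genes are long in both. The pale bars come from fewer barcodes, in which 2.49% of all genes were called higher and 1.19% lower (dotted lines), and a shorter pale bar does not show a smaller change.

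Part of the antimicrobial and alarm genes of the epithelium rose in both sets of members. Of 20 tested 11 rose (55%, against 10.2% of all genes) and 0 fell over all members. In members with little enterocyte RNA 8 of 18 rose, against 2.49% of all genes. Reg3g, a lectin that kills Gram-positive bacteria, was at 833, 424 and 1098 CPM in control and 4755, 5732 and 7837 CPM in IE-HuR-/- goblet barcodes (log2 fold change 3.16, standard error 0.431, edgeR adjusted p = 0.0103). Its log2 fold change was 4.67 in members with little enterocyte RNA. The related Reg3b was at 1631, 657 and 2164 and 8752, 9404 and 13307 CPM (log2 fold change 3.02, edgeR adjusted p = 0.0237), a call that was lost without control 1 and without each IE-HuR-/- library in turn. Saa1, an acute-phase serum amyloid, was at 14.2, 4.25 and 7.41 and 586, 790.2 and 952 CPM (log2 fold change 6.68, edgeR adjusted p = 0.00225). Duox2, the epithelial oxidase that makes hydrogen peroxide, was at 50.7, 75.4 and 48.7 and 275, 434 and 432 CPM (log2 fold change 2.88, edgeR adjusted p = 0.00127). Saa2 was at 0, 0 and 0.176 CPM in control and 5.25, 4.61 and 9.58 CPM in IE-HuR-/- libraries. For each of these genes the libraries did not overlap. Saa1 and Saa2 are near-identical copies, as are the alpha-globins named below, and how reads were split between such copies is uncertain.

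Levels were also taken in T cell barcodes of the same libraries, which held a UMI of Ptprc and of a Cd3 gene and in which 2.02% of 12181 genes were called. Of 17 genes of this group tested there, 4 were higher and 1 lower in IE-HuR-/- libraries, and Saa1 passed (edgeR adjusted p = 0.0334) while Reg3g did not (edgeR adjusted p = 0.317). Saa1 was at 0.703 ± 0.658 CPM in control and 57.8 ± 29.8 CPM in IE-HuR-/- T cell barcodes, against 4.68 ± 2.14 and 248 ± 64.4 CPM in enterocyte barcodes. Reg3g was at 366 ± 175 and 884 ± 207 CPM in T cell barcodes and 1064 ± 111 and 3904 ± 267 CPM in enterocyte barcodes. At 3000 UMIs a Reg3g UMI was seen in 34.5, 37.4 and 40.4% of control and 68.2, 72.2 and 77.6% of IE-HuR-/- goblet barcodes and in 17.3, 26.3 and 17.7% and 48.3, 45.3 and 47.7% of T cell barcodes. The level of Saa1 was higher in goblet than in enterocyte barcodes, whereas that of Reg3g was of the same order in both, and the part of free RNA in the goblet values was not tested.

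Genes that respond to interferon moved both ways. Of 28 tested 9 rose (32.1%, against 10.2% of all genes) and 7 fell, against 8.52%, over all members. In members with little enterocyte RNA 6 rose and 2 fell of 24, against 2.49% and 1.19% of all genes. In enterocyte barcodes 5 rose and 17 fell of 28, where 59.3% of all genes were called. In T cell barcodes 1 rose and 9 fell of 26, where 2.02% of all genes were called. Zbp1, a sensor of Z-form nucleic acid, was at 36.8, 29.6 and 36.3 CPM in control and 85.3, 77.2 and 88.3 CPM in IE-HuR-/- libraries (log2 fold change 1.47, edgeR adjusted p = 4.88e-06). Iigp1, an immunity-related GTPase, was at 0.169, 0.152 and 0 and 25.8, 10.1 and 18.1 CPM, where the control values are those of 0 or 1 UMI per library. The guanylate-binding protein Gbp2 was at 12.5, 4.71 and 17.1 and 88.2, 56.999 and 82.1 CPM (log2 fold change 2.93, edgeR adjusted p = 0.0128), and the call was lost without IE-HuR-/- 3. The falls were of Ifit1, Ifit3, Isg15, Ddx58, Ifi27l2b, Ifi44 and Rtp4, and numbered 4 without control 1, while Ifit1bl1, of the same family as Ifit3, rose. Ifit3 was at 8.64, 8.96 and 6.52 and 1.89, 0.288 and 1.04 CPM (log2 fold change -2.63, edgeR adjusted p = 0.000755), and Ifi44 had -1.85, a call lost without control 1 and without IE-HuR-/- 2 or 3. Ifi27l2b, the most abundant member, was at 1697, 1571 and 1667 and 1129, 1083 and 989 CPM (log2 fold change -0.45, edgeR adjusted p = 0.00944).

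MHC class II genes present antigen to CD4+ T cells, and epithelial cells express them under interferon gamma. Most of those tested were higher in IE-HuR-/- goblet barcodes. Of 9 tested 7 rose (77.8%, against 10.2% of all genes) and 0 fell. In members with little enterocyte RNA 6 of 9 rose, against 2.49% of all genes. The rise was shared by other cells of the same libraries. In enterocyte barcodes 7 rose and 1 fell of 9, where 59.3% of all genes were called. In T cell barcodes 7 rose and 0 fell of 9, where 2.02% of all genes were called. Cd74, the invariant chain, was at 299.5, 255 and 322 CPM in control and 1189.7, 1242 and 1238 CPM in IE-HuR-/- libraries (log2 fold change 2.25, standard error 0.114, edgeR adjusted p = 4.72e-08). H2-Aa was at 93.7, 80.1 and 90.3 and 493, 552 and 549.7 CPM (log2 fold change 2.78, edgeR adjusted p = 9.38e-09), H2-DMb1 had a log2 fold change of 2.68 and H2-Eb1 of 2.10. Ciita, the master activator of these genes, was at 0.339, 1.52 and 1.94 and 13.02, 9.21 and 11.1 CPM (log2 fold change 3.29, edgeR adjusted p = 7.69e-05). Cd74 was at 367 ± 32.1 and 2118 ± 43.5 CPM in enterocyte barcodes and at 160.2 ± 41.7 and 628 ± 53.2 CPM in T cell barcodes. At 3000 UMIs its transcript was seen in 26.7, 25.7 and 26.3% and 63.1, 56.5 and 52.8% of goblet, 30.7, 35.3 and 26.3% and 87.7, 84.7 and 86.7% of enterocyte and 9.67, 14 and 7.67% and 29.3, 28.7 and 34.7% of T cell barcodes, so the goblet values lay between the others in the IE-HuR-/- libraries. The rule removed every barcode with a Ptprc UMI. Of other cells that carry MHC class II, the 9 B and plasma cell genes held 0.000305, 0.000927 and 0.000141% of the members' UMIs in control and 0.00197, 0.00153 and 0.0014% in IE-HuR-/- libraries, and the 10 myeloid genes 0.000474, 0.000608 and 0.000353% and 0.000777, 0.000576 and 0.000544%, and their part in these values was not tested.

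Xenobiotic metabolism was the group with the most falls. Of 46 tested genes 28 fell and 1 rose (63.0% called, against 18.8% of all genes). In members with little enterocyte RNA 10 fell and 1 rose of 36, against 1.19% and 2.49% of all genes. The group also fell in other cells of the same libraries. In enterocyte barcodes 32 fell and 8 rose of 46, where 59.3% of all genes were called. In T cell barcodes 12 fell and 1 rose of 44, where 2.02% of all genes were called. Cyp3a11, the main drug-metabolising cytochrome P450 of the gut, was at 1451, 1435 and 1370.1 CPM in control and 279, 274 and 202 CPM in IE-HuR-/- goblet barcodes (log2 fold change -2.32, edgeR adjusted p = 1.78e-07), against 2458 ± 100.2 and 503 ± 18.7 CPM in enterocyte barcodes. Cyp2c29, another P450, was at 160.1, 149 and 192 and 4.41, 3.74 and 5.699 CPM (log2 fold change -4.98, edgeR adjusted p = 5.37e-10), against 267 ± 15.6 and 11.8 ± 1.63 CPM in enterocyte barcodes. The esterase Aadac had -2.36, Cyp2j9 -2.61 and Cyp3a13 -0.61. The single rise was Akr1b8, an aldo-keto reductase, at 2.54, 1.06 and 1.23 and 30.5, 22.7 and 19.4 CPM (log2 fold change 4.08, edgeR adjusted p = 1.5e-06).

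Metallothioneins and zinc transporters were mixed, with 3 rises and 4 falls of 13 tested over all members (53.8% called, against 18.8% of all genes). In members with little enterocyte RNA there were 2 rises and 0 falls of 13, against 2.49% and 1.19% of all genes. Without control 1 or IE-HuR-/- 3 the falls over all members numbered 2. Mt1, which binds zinc and copper, was at 106, 99.5 and 206 CPM in control and 1632, 1462 and 1751 CPM in IE-HuR-/- goblet barcodes (log2 fold change 3.75, edgeR adjusted p = 0.000403), and 3.73 in members with little enterocyte RNA. It was at 215 ± 18.02 and 2189 ± 89.1 CPM in enterocyte barcodes and 93.6 ± 19.1 and 511 ± 31.9 CPM in T cell barcodes. Slc30a1, the zinc exporter, had a log2 fold change of 1.37, while Slc30a2 (-1.61), Slc30a5 (-0.80) and Slc30a10 (-0.65) fell. None of these transporter calls passed in members with little enterocyte RNA.

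Of 25 tested genes of ion, bicarbonate and water transport, 4 rose (16%, against 10.2% of all genes) and 8 fell, against 8.52%. In members with little enterocyte RNA 2 rose and 3 fell of 21, against 2.49% and 1.19% of all genes. The falls over all members numbered 4 without control 1, 3 without IE-HuR-/- 2 and 3 without IE-HuR-/- 3. Unfolding of secreted mucin needs bicarbonate. Ano1, a calcium-activated chloride channel, was at 0.847, 0.7596 and 0.705 CPM in control and 7.35, 8.92 and 9.07 CPM in IE-HuR-/- libraries (log2 fold change 3.58, edgeR adjusted p = 1.71e-05). The water channel Aqp1 was at 69.8, 69.1 and 80.9 and 22.3, 27.6 and 17.4 CPM (log2 fold change -1.53, edgeR adjusted p = 2.01e-05), and both passed in members with little enterocyte RNA. Car4, a carbonic anhydrase, had a log2 fold change of 3.63, the sodium bicarbonate cotransporter Slc4a7 -0.99 and the chloride and bicarbonate channel Cftr -0.88, none of which passed there. Atp1b1, the most abundant member and a subunit of the sodium pump, had -0.40 over all members and 0.16 in those with little enterocyte RNA.

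The respiratory chain was tested because the study was concerned with mitochondrial metabolism. Of 68 tested nuclear genes of the chain and its partners 2 rose and 3 fell (7.35%, against 18.8% of all genes). The median log2 fold change was 0.014. In members with little enterocyte RNA 2 rose and 0 fell of 67, against 2.49% and 1.19% of all genes. Cox4i1, the most abundant, was at 705, 685 and 924 CPM in control and 785, 706 and 700.5 CPM in IE-HuR-/- goblet barcodes (log2 fold change 0.10, edgeR adjusted p = 0.59). The complex I subunits Ndufs7 (-0.72), Ndufa4 (-0.69) and Ndufa5 (-0.59) fell over all members, and these calls were lost without IE-HuR-/- 2 and without IE-HuR-/- 3. Cytochrome c, Cycs (0.40), and the porin Vdac2 (0.46) rose, both also in members with little enterocyte RNA, and neither passed without TMM scaling or without control 1. Of 14 tested Notch and EGF pathway genes 21.4% were called, near the 18.8% of all genes. The receptor Egfr (1.10) and its ligand Areg (1.05) rose and the ligand Ereg (-1.37) fell over all members. The Areg call was lost without control 1, control 2, control 3 or IE-HuR-/- 3, and the Ereg call without IE-HuR-/- 2 or 3. None of 11 rose and 2 fell in members with little enterocyte RNA, against 2.49% and 1.19% of all genes. The falls there were of the Notch ligand Dll4 (-1.01) and the EGF receptor ligand Btc (-0.80). Of 7 tested cell cycle genes, and of 3 in members with little enterocyte RNA, 0 passed in edgeR and 0 had an unadjusted p under 0.05, while DESeq2 called 1 lower, with Pcna, the most abundant, at a log2 fold change of -0.15.

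The genes enriched in goblet barcodes with the largest rises, limited to those with at least 50 CPM under one genotype and no overlap of libraries, were Saa1, Muc4, Gbp2 and Spink4, given above, and 6 more. In the control libraries Saa1 was under 2 times as high in goblet as in enterocyte barcodes. It is on this list only through the IE-HuR-/- libraries. Gmds, which makes the GDP-fucose used in mucin fucosylation, was at 49.8, 43.4 and 73.2 CPM in control and 161, 138 and 205 CPM in IE-HuR-/- goblet barcodes (log2 fold change 1.79, edgeR adjusted p = 0.000562). The immediate early gene Egr1 was at 56.6, 47.2 and 50.4 and 146, 135 and 166 CPM (log2 fold change 1.71). D10Wsu102e (1.91), the calpain Capn5 (1.89), Marcksl1 (1.36) and the tetraspanin Cd9 (1.36) completed the list, and of these 6 genes Marcksl1 and Cd9 did not pass in members with little enterocyte RNA.

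By the same limits 3 goblet-enriched genes fell. Clps, the cofactor of pancreatic lipase, at chr17:28558210-28560766, was at 421, 308 and 400.2 CPM in control and 149.8, 139 and 121 CPM in IE-HuR-/- goblet barcodes (log2 fold change -1.28, standard error 0.128, edgeR adjusted p = 2.85e-05). In members with little enterocyte RNA it was at 713, 609 and 680.3 and 186, 185 and 131 CPM, which is -1.94 on the log2 scale (edgeR adjusted p = 0.000683). Tm4sf4, a tetraspan membrane protein, was at 614, 629 and 623 and 452, 352 and 401 CPM (log2 fold change -0.45, edgeR adjusted p = 0.0142), and -0.84 in those members. The call for Tm4sf4 over all members was lost without control 1, control 2 or IE-HuR-/- 2. Serpina1b, a protease inhibitor, was at 85.9, 109 and 86.6 and 56.7, 29.4 and 44.04 CPM (log2 fold change -0.93), and did not pass without control 1, without IE-HuR-/- 3 or in members with little enterocyte RNA.

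Over all called genes the largest rises also included Acta1, Mt1 and Car4. Acta1, skeletal muscle actin, was at 12.9, 11.5 and 18.3 CPM in control and 682, 790.2 and 864 CPM in IE-HuR-/- goblet barcodes (log2 fold change 5.96, edgeR adjusted p = 5.37e-10), at 22.8 ± 4.41 and 1423 ± 25.5 CPM in enterocyte barcodes and at 8.61 ± 5.88 and 306 ± 5.62 CPM in T cell barcodes. The largest falls within these limits were Cyp2c29 and 4 globin genes. Hba-a1, an alpha-globin, was at 137, 279 and 221 and 12.2, 4.03 and 6.22 CPM (log2 fold change -4.61), Hbb-bs at 432, 725 and 421 and 40.3, 12.4 and 16.3 CPM (-4.33), and Hba-a2 and Hbb-bt had -4.44 and -5.02. The globin calls were lost with at least 5% from the rule genes, where the erythroid list held 0.0886, 0.123 and 0.00296% in the control libraries, control 3 having the lowest. The part of red cell RNA in these values was not tested.

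Last, the effect of genotype in goblet barcodes was set against that in the 13815 enterocyte barcodes of the same 6 libraries, and the difference between these effects was tested as an interaction. Enterocyte barcodes had under 0.2% of UMIs from the rule genes and at least 2% from Fabp1, Fabp2, Apoa1, Apoa4, Apoc3, Alpi and Sis. Of 12038 genes tested, 179 differed (1.49%), 109 with a higher effect in goblet barcodes (0.905%) and 70 with a lower one (0.581%). At an unadjusted p under 0.05 there were 1624. The count fell to 56 without control 1, 96 without control 2 and 57 without IE-HuR-/- 3, and rose to 758 with at least 5% from the rule genes, a setting chosen after the data were seen. Among genes with at least 50 CPM in goblet barcodes, the largest differences upward were in genes low in enterocyte barcodes. Anxa3, a phospholipid-binding annexin, was at 40.8, 31.1 and 39.3 CPM in control and 72.3, 65.6 and 87.8 CPM in IE-HuR-/- goblet barcodes and at 0.801 ± 0.0723 and 0.396 ± 0.0667 CPM in enterocyte barcodes, a difference in log2 effect of 2.02 (standard error 0.228, edgeR adjusted p = 0.00066). Hgfac, the protease that activates hepatocyte growth factor, was at 59.8, 53.3 and 60.1 and 92.2, 88.1 and 96.4 CPM in goblet and 4.53 ± 0.504 and 1.76 ± 0.404 CPM in enterocyte barcodes, a difference of 2.01 (standard error 0.194, edgeR adjusted p = 0.000308). Rab27b, which acts with RAB27A in granule release, differed by 1.41 (standard error 0.1601, edgeR adjusted p = 0.000758), the protease Bace2 by 1.502 (standard error 0.327, edgeR adjusted p = 0.0394) and Ifit1bl1 by 1.40 (standard error 0.206, edgeR adjusted p = 0.0115). In these 5 genes the goblet effect was above 0 and the enterocyte effect below it, with enterocyte log2 fold changes of -0.83, -1.17, -0.99, -0.93 and -0.53.

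The largest differences downward were of another kind. B3gnt7, which extends keratan sulfate and poly-lactosamine chains, was at 54.2, 50.4 and 48.5 CPM in control and 72.7, 70.2 and 84.7 CPM in IE-HuR-/- goblet barcodes and at 7.39 ± 0.516 and 35.2 ± 2.17 CPM in enterocyte barcodes, a difference in log2 effect of -1.71 (standard error 0.156, edgeR adjusted p = 0.000297). The potassium channel Kcnk6 differed by -2.07 (standard error 0.222, edgeR adjusted p = 0.000925) and the channel protein Ttyh1 by -1.11 (standard error 0.1902, edgeR adjusted p = 0.00925). Both had log2 fold changes above 0 in both and larger ones in enterocyte barcodes, 2.65 and 1.84, from lower levels. The globins Hba-a1 and Hbb-bs had lower effects in goblet barcodes, by -2.59 and -2.28. Goblet and enterocyte sums came from the same libraries and goblet barcodes held enterocyte RNA, which was part of both.

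**Figure D5:**
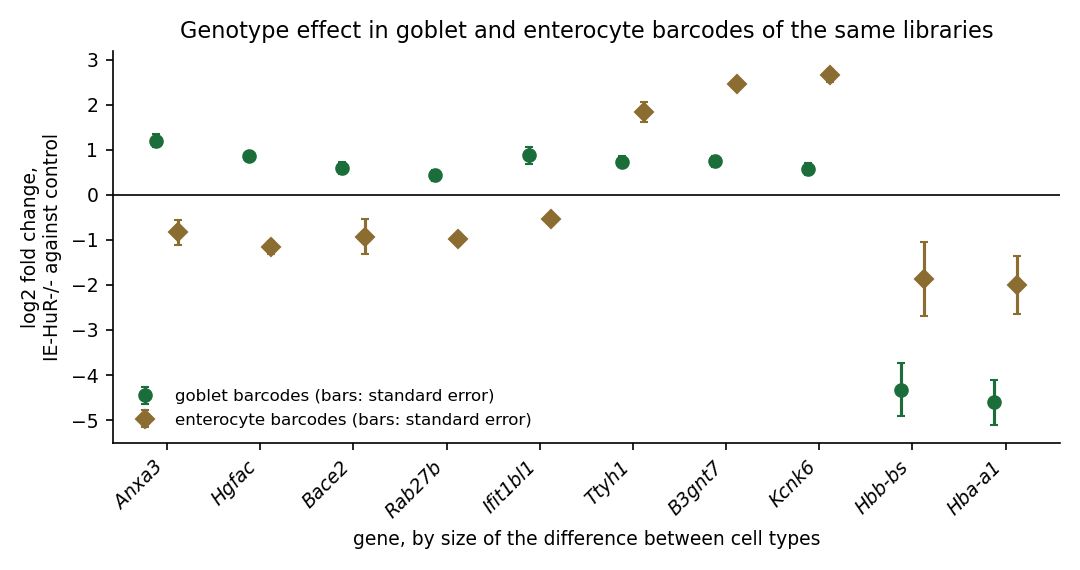
Log2 fold change of IE-HuR-/- against control in goblet barcodes (circles) and in enterocyte barcodes (diamonds) for the 5 largest differences in each direction, with bars for the standard error; the horizontal line is no change. The first 5 genes lie above the line in goblet and below it in enterocyte barcodes, Ttyh1, B3gnt7 and Kcnk6 lie above it in both, and the globins lie below it in both.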

How the data were processed

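Per the labels and the paper's methods, cells of 6 mice were barcoded on the 10x Genomics platform. The labels name a 5' kit and the methods a 3' kit. The deposited files hold unscaled UMI counts, a gene by barcode matrix for each mouse made with Cell Ranger, whose version in the file headers is 6.1.2. The submitters' processing notes also name mm10 and Seurat, while the methods name a human build and an older Cell Ranger. Each deposited matrix was already filtered to barcodes with at least 500 UMIs, and each of the 6 matrices holds 32285 features.

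UMIs of the goblet barcodes were summed per library, so the library is the replicate, and tested with edgeR 4.0.16 (R 4.3.3): TMM factors, filterByExpr, robust quasi-likelihood fits and Benjamini-Hochberg adjustment over all genes tested, called under 0.05. DESeq2 1.42.0 was an alternative. No batch or replicate term was used. The interaction was fitted on 12 sums with library as a term. Shares and cell measures were compared by two-sided exact permutation tests over libraries (scipy 1.17.1). The scripts were tested on simulated data. The labels call the libraries replicates of a genotype, 1 mouse each, and p-values measure the spread between them. Each library was counted as 1 sample on the basis of these labels. The libraries' summed goblet counts differed by more than sampling noise in every pair (chi-square per degree of freedom 4.55 to 48.7). Such a difference does not by itself show that the libraries are independent.

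The depth of a library's goblet sum, 3473721 to 6582381 UMIs per library, sets the precision, and genes below the filter were not tested. No doublet caller was run. In its place, fits were repeated without the 505 members with a UMI of Cd3e, Cd3g, Chga, Chgb, Dclk1 or Trpm5 and the 22 with at least 1% of UMIs from Paneth defensins and Lyz1, and without the 10% of members of highest UMIs in each library. The members and gene lists were chosen with earlier results of these data known. Genes named are Elavl1 and the rule genes, the 25 of highest identity ratio, the largest rises and falls among called genes with no overlap of libraries and at least 50 CPM under one genotype (10 each way among goblet-enriched genes, of which 3 fell, and 5 each way over all), in each group the most abundant tested member and up to 5 called members of largest fold change (all tested members of the 3 goblet groups), and the 5 largest interactions each way with at least 50 CPM. Barcodes with Ptprc UMIs were left out of the goblet set, and no sequence was analysed.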

Additional observations from a re-analysis of the deposited data

Results flagged for a closer look

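The effect of genotype differed between goblet and enterocyte barcodes of the same libraries in 179 genes by the test of the interaction. The difference in log2 effect, goblet minus enterocyte, was 2.02 for Anxa3, 2.01 for Hgfac, 1.502 for Bace2, 1.41 for Rab27b and 1.40 for Ifit1bl1. It was -2.59 for Hba-a1, -2.28 for Hbb-bs, -2.07 for Kcnk6, -1.71 for B3gnt7 and -1.11 for Ttyh1. In members with little enterocyte RNA the goblet effect itself still passed for Anxa3 and Ifit1bl1 (log2 fold changes 0.79 and 1.25) and not for the other 8.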

How the results depend on the processing

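Under the alternatives the count of called genes stayed within 1.5 times of 1801 except with genes at least as high in goblet as in other barcodes (552), without members with enterocyte RNA (285) and when single libraries were left out (962 to 1746). The replicate numbers do not pair the libraries (correlations of the deviations of same-numbered libraries -0.227, 0.286 and -0.0425). With a replicate block 1405 genes were called, 796 higher and 609 lower, and the goblet share had a log2 ratio of -0.34 (exact sign-flip p = 0.5). The interaction count was 110 against all other Ptprc-free barcodes, 417 with no filter on low counts, where the balance turned from 109 higher and 70 lower to 168 higher and 249 lower, 758 with at least 5% from the rule genes, an alternative chosen after seeing the data, and 56 to 215 when single libraries were left out. The difference in median UMIs (IE-HuR-/- minus control) was -281 and turned to 109 with at least 5% from the rule genes, with a range of -4273 to 2005 when single libraries were left out, being 1426 without control 1, 2005 without control 3 and 269 without IE-HuR-/- 2. The difference in ribosomal protein percent turned to -0.108 with at least 3000 UMIs. In members with little enterocyte RNA the log2 fold changes of Muc3a (-0.047), Foxa3 (-0.044) and Atp1b1 (0.16) changed sign. The goblet share kept its direction under each alternative run and passed no threshold. The causes were not tested, beyond fewer members, genes or libraries entering those fits.

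Of 129 named genes with a test, 103 were called, and 35 of these under every alternative in which they were tested. Without members with enterocyte RNA 54 lost their call, among genes at least as high in goblet as in other barcodes 23, without TMM scaling 20, with the replicate block 12 and with DESeq2 5. Without control 1 the calls lost were Serpina1b, Tm4sf4, Hbb-bt, Ifit1bl1, Ang4, Lypd8, Smim14, Capn9, Gcnt3, Foxa1, Tcf7l2, Foxa3, B3galt5, Galnt11, Pdia5, Creld2, Ssr2, Reg3b, Ifi27l2b, Ifi44, Cyp3a13, Slc30a10, Atp1b1, Cftr, Ndufa5, Vdac2, Cycs and Areg. Without control 2 they were Tm4sf4, Rab27b, Smim14, Gcnt3, Muc3a, Tcf7l2, Foxa3, Galnt11, Pdia5, Spcs3, Cycs and Areg, and without control 3 Ang4, Smim14, Foxa1, Tcf7l2, Foxa3, Galnt11, Ndufa5 and Areg. Without IE-HuR-/- 1 they were Hbb-bt, Galnt11, Pdia5, Spcs3, Reg3b and Atp1b1, without IE-HuR-/- 2 Tm4sf4, Hbb-bt, Smim14, Capn9, Muc3a, Foxa1, Tcf7l2, Foxa3, B3galt5, Galnt11, Reg3b, Ifi44, Atp1b1, Slc4a7, Cftr, Ndufs7, Ndufa4, Ndufa5, Cycs and Ereg, and without IE-HuR-/- 3 Gbp2, Serpina1b, Hbb-bt, Hbb-bs, Rab27b, Kcnk6, Smim14, Capn9, Gcnt3, Muc3a, Foxa1, Tcf7l2, Foxa3, Galnt11, Creld2, Ssr2, Spcs3, Reg3b, Ifi44, Slc30a10, Atp1b1, Cftr, Ndufs7, Ndufa4, Ndufa5, Vdac2, Ereg and Areg.

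Depth limits the rarest transcripts, and with 3 libraries a side the exact tests cannot pass 0.05.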

Other observations

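Some members also held transcripts of another secretory cell type. At least 1% of UMIs came from the Paneth cell list in 26 members, 8 in control and 18 in IE-HuR-/- libraries, and 24 of these, 8 and 16, also had at least 5% from the rule genes. The enteroendocrine list reached 1% in 15 members, 9 in control and 6 in IE-HuR-/- libraries, and in 4 with at least 5% from the rule genes. Among the latter, a barcode of IE-HuR-/- 2 held 9406 UMIs of neurotensin (Nts) of 11797 list UMIs, a barcode of IE-HuR-/- 3 held 3016 UMIs of Nts, a barcode of IE-HuR-/- 1 held 1773 UMIs of secretin (Sct) and a barcode of control 1 held 516 UMIs of somatostatin (Sst). 0 members reached 1% for the tuft, T and NK or stem and progenitor lists. The deepest member, in control 3, held 219280 UMIs. Whether such barcodes held 1 cell or more than 1 was not tested.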
